A study of Mus musculus with 24 samples.

Results

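G protein-gated inwardly rectifying potassium channels (GIRK channels), the GABA-B receptors that open them and the GTPase-activating protein Rgs7, which helps to close them, were followed over the hippocampus (HIP) and entorhinal cortex (EC) of Ts65Dn and wild-type (wt) mice. The 8 genes were chosen by name: the GIRK subunit genes Kcnj6, Kcnj3, Kcnj9 and Kcnj5, the related inward rectifier Kcnj15, the receptor subunit genes Gabbr1 and Gabbr2, and Rgs7. All 8 were found among the 55385 genes of the count table. The data were 24 RNA sequencing libraries from 12 adult male mice aged 5 to 6 months, 6 Ts65Dn and 6 wt littermates on a mixed C57BL/6 and C3H background, and each mouse gave 1 HIP and 1 EC library. Ts65Dn mice, used as a model of Down syndrome, carry a minichromosome with the distal part of mouse chromosome 16 (Mmu16) and the proximal part of Mmu17, so that genes in these segments are present in 3 copies in every cell. The segment of Mmu17 carries genes without counterparts on human chromosome 21, which limits Ts65Dn as a model of that trisomy. The wt mice lacked the minichromosome, and no mouse was treated.

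GIRK channels are assemblies of 4 subunits that let potassium out of the cell when the beta-gamma dimer of an inhibitory G protein binds them. In neurons of the HIP and cortex they are activated through GABA-B receptors, which are obligate pairs of a Gabbr1 subunit that binds GABA and a Gabbr2 subunit that couples to the G protein, and their opening gives the slow inhibitory postsynaptic current. Rgs7, with the beta subunit Gnb5, speeds the hydrolysis of GTP on the G protein and so shortens the response.

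Kcnj6, which encodes GIRK2, lies on Mmu16 at 94748636 to 94997701 (GRCm38, minus strand), within the triplicated segment, and Kcnj15, which encodes Kir4.2, starts 259.857 kb beyond it, at 95257558 to 95300260 on the plus strand. The other 6 genes are present in 2 copies in Ts65Dn. Kcnj3 (GIRK1) is on chromosome 2 at 55435970 to 55598145, Kcnj9 (GIRK3) on chromosome 1 at 172320501 to 172329318, Kcnj5 (GIRK4) on chromosome 9 at 32314707 to 32344350, Gabbr2 on chromosome 4 at 46662305 to 46991873 and Rgs7 on chromosome 1 at 175059087 to 175492500. Gabbr1 is on Mmu17, at 37045966 to 37075067, but outside the triplicated part, which ends at 8986648.

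The promoters of the 2 triplicated members are shown because these genes have the same copy number and the levels of their RNA, given below, lie far apart. Each window holds 300 bases from RefSeq (GRCm38.p6), which end shortly after an annotated start, written 5′ to 3′ on the strand of the gene, with CG dinucleotides (CpG) in capitals.
Kcnj6, chr16:94997647-94997946, minus strand: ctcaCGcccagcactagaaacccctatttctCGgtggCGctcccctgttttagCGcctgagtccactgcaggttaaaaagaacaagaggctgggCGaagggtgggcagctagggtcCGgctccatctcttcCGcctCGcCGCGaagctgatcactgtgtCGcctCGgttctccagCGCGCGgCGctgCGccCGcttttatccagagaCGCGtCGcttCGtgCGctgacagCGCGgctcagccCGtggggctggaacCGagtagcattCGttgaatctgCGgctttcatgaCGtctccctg
Kcnj6, second start, chr16:94856641-94856940, minus strand: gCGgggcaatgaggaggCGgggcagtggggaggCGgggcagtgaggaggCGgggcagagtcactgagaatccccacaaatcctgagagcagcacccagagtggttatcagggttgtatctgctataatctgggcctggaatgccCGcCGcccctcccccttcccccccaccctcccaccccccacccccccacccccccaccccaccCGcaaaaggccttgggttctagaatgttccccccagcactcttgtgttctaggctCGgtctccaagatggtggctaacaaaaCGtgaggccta
Kcnj15, chr16:95257308-95257607, plus strand: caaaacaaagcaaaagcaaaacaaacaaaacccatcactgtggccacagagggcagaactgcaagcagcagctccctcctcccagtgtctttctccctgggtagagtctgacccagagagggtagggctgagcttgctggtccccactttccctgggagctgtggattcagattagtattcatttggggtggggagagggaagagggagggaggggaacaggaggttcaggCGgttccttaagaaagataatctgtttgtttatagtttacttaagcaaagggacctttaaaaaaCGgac
The first Kcnj6 window held 30 CpG, as many or more than which were found in 11.7% of the 32851 promoter windows of the same length. The window of the second start held 9 (45.8% of windows had at least as many), and that of Kcnj15 held 2 (85.9%). The median window held 7. Those of the other members held 46 (Gabbr2), 34 (Rgs7), 18 (Gabbr1), 10 (Kcnj3), 10 (Kcnj5) and 5 (Kcnj9). Any relation of CpG to RNA level was not tested. These counts describe the letters of the windows, and no measurement of methylation or binding was made.

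Library totals ranged from 23128589 to 40476492 counts. Genes on the triplicated segments checked the labels: in 5 of the 6 Ts65Dn mice, the median triplicated Mmu16 gene was at 1.44 to 1.54 times the wt mean in HIP and at 1.46 to 1.54 times in EC, whereas the library labelled Ts65Dn replicate 3 was at 1.02 and 1.002 times, within or close to the wt ranges of 0.980 to 1.01 and 0.981 to 1.01. Both libraries of that mouse therefore went against their label. They were kept in the Ts65Dn group unless stated, and the genotype results of the members are given with and without them. Tissue markers mostly followed the region labels in wt mice. In the HIP, 5 of 5 dentate granule cell genes and 5 of 6 hippocampal CA field genes were higher. Lower there were 1 CA field gene and 6 of 7 cortical genes. Of all genes tested, 31.0% were higher and 30.3% lower in the HIP.

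Levels of the members were compared with each other per length, as CPM per kb, the counts scaled to library size (CPM) and divided by kilobases of exon. In the wt HIP the order was Gabbr1 (107 ± 8.71, mean ± SD, n = 6), Gabbr2 (52.9 ± 2.85), Kcnj3 (40.5 ± 2.16), Kcnj9 (23.6 ± 5.02), Rgs7 (13.1 ± 0.591), Kcnj6 (6.27 ± 0.456), Kcnj5 (0.166 ± 0.0807) and Kcnj15 (0.00636 ± 0.00809), and no neighbours in this order had overlapping ranges. In the wt EC, Gabbr1 (129 ± 3.11) and Gabbr2 (73.6 ± 5.45) again came first. Kcnj9 (33.9 ± 6.32) and Kcnj3 (33.9 ± 3.41) followed with overlapping ranges, so their order could not be told. Rgs7 (21.0 ± 1.03), Kcnj6 (3.86 ± 0.321), Kcnj5 (0.522 ± 0.0636) and Kcnj15 (0.0108 ± 0.00529) came next without overlap. In both regions Kcnj6 was thus the lowest of the 3 GIRK genes known to be widely expressed in brain, and Kcnj5, the subunit best known from heart atrium, and Kcnj15, best known from kidney, were the lowest of the 8.

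**Figure D1:**
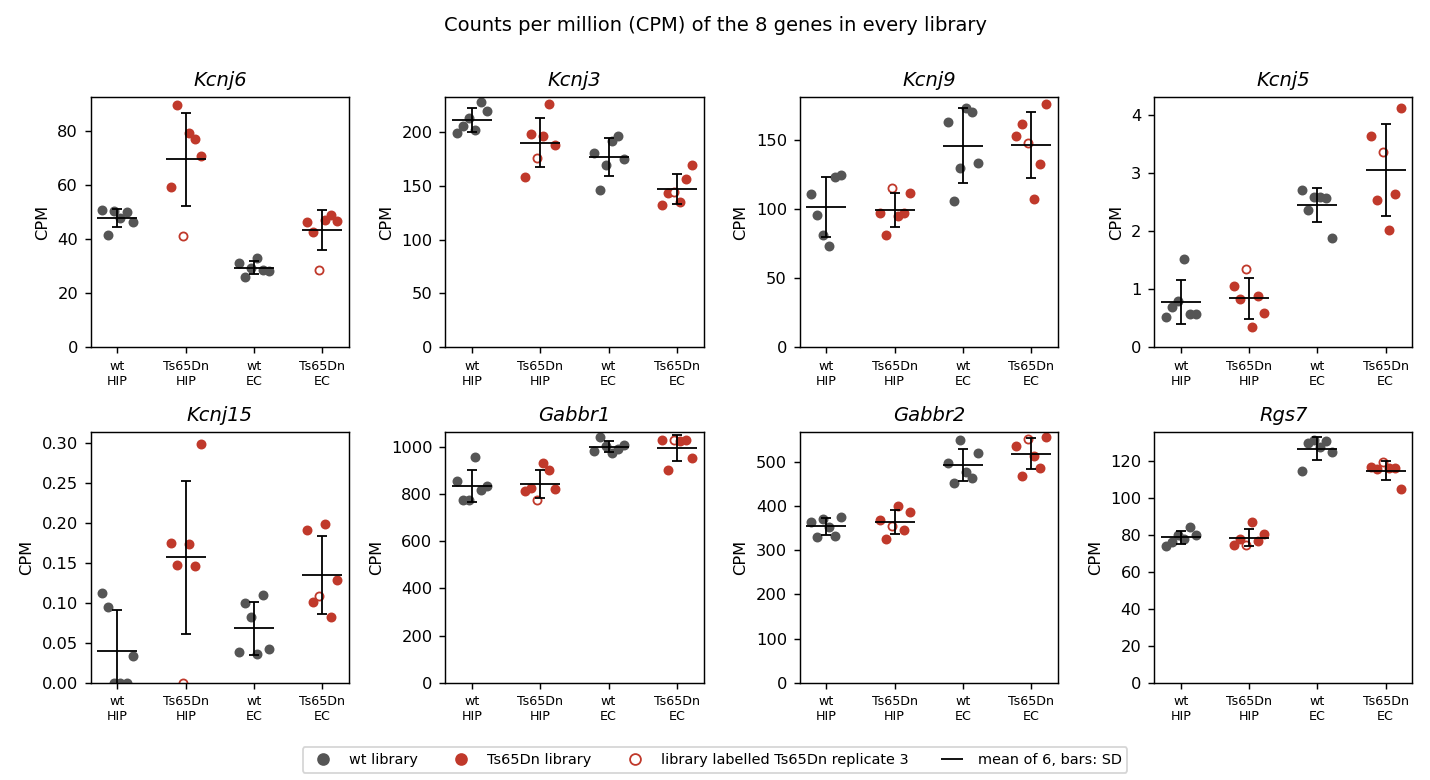
CPM (y axis, from 0) of each of the 8 genes in the 6 libraries of each group (x axis); points are libraries, horizontal bars the mean of 6 and error bars the SD. For Kcnj6, the library labelled Ts65Dn replicate 3 (open circle, 41.4 in HIP and 28.8 in EC) sits at the wt level and the other 5 Ts65Dn libraries lie above every wt library in both regions.

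The first question was whether the extra copy of Kcnj6 was seen in its RNA. In the HIP, Kcnj6 was at 41.7, 49.1 and 50.7 CPM (lowest, median and highest of 6) in wt and at 41.4, 74.0 and 89.7 CPM in Ts65Dn. The lowest value of the Ts65Dn group was that of the library labelled replicate 3, and the other 5, from 59.2 to 89.7 CPM, did not overlap wt. The fold change of Ts65Dn over wt was 1.45 (95% interval 1.17 to 1.79; log2 0.54 ± 0.14 SE). It did not pass the threshold by edgeR (adjusted p = 0.0953), but did by DESeq2 (adjusted p = 0.0111). Without the library labelled Ts65Dn replicate 3 the fold change was 1.57 (1.37 to 1.80) and passed (edgeR adjusted p = 0.00197).

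In the EC, Kcnj6 was at 26.2, 28.9 and 33.2 CPM in wt and at 28.8, 46.6 and 49.0 CPM in Ts65Dn. Here too the lowest Ts65Dn value was that of the library labelled replicate 3, and the other 5 libraries, from 42.6 to 49.0 CPM, lay above all wt libraries. Kcnj6 rose 1.47-fold (1.25 to 1.73; log2 0.55 ± 0.11 SE; edgeR adjusted p = 0.0221), and without the library labelled Ts65Dn replicate 3 it rose 1.57-fold (1.42 to 1.72; adjusted p = 6.62e-05). The call was lost without Ts65Dn replicate 1 (adjusted p = 0.0590) or Ts65Dn replicate 4 (0.0523). The intervals of both regions include 1.5, the ratio of 3 to 2 gene copies, with and without that library. Tissue was sequenced in bulk. For Kcnj6 and every other gene here, a change in cell numbers cannot be told from a change in RNA per cell.

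Every Ts65Dn library above every wt library, with the library labelled Ts65Dn replicate 3 set aside, was the case for 2.03% of all genes tested in HIP and 2.31% in EC, and Kcnj6 was among them in both. Kcnj6 was itself among the triplicated genes that checked the labels, so this separation is not independent of setting that library aside. With that library kept, Kcnj6 overlapped wt in both regions. Of the 7 members tested by edgeR, 0 were called in the HIP, where 1.04% of 17355 genes were called and 1 member, Kcnj6, was below an unadjusted p of 0.05, as were 14.8% of all genes. DESeq2 called 1 member there, beside 662 genes in all. Without the library labelled Ts65Dn replicate 3, edgeR also called 1, against a background of 1.82%. In the EC, 1 of 7 was called, against a background of 2.50% of 17049 genes, and without that library again 1, against 2.79%. In the EC 3 of the 7, Kcnj6, Kcnj3 and Rgs7, were below an unadjusted p of 0.05, as were 19.0% of all genes. The median log2 fold change of the 7 was 0.01 in HIP and -0.01 in EC, and that of all genes tested in the HIP was 0.00466.

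An antisense gene, Gm41505, overlaps Kcnj6 and shares 4.34% of its 50-base words on the opposite strand. It held 4494 counts over all libraries where Kcnj6 held 33731. The strand setting of the counting is not given in the sources used here, so a part of either count may come from the other gene. Kcnj9 has an antisense gene of its own, Gm36937, with 306 counts to the 87116 of Kcnj9, and 29.3% of the words of Kcnj3 lie opposite Gm26794, which was not analysed here.

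The members Kcnj6 and Kcnj15 have 6 tested protein-coding neighbours on Mmu16, all of them triplicated. On the side of lower coordinates, the ubiquitin ligase gene Ttc3 was at 1.43-fold in HIP and 1.44-fold in EC, the endosomal sorting gene Vps26c at 1.41 and 1.35, and the kinase gene Dyrk1a at 1.36 and 1.30. On the other side, the ETS factor genes Erg and Ets2 were at 1.22 and 1.05 and at 1.35 and 1.34, and the proteasome assembly gene Psmg1 was at 1.51 and 1.46. Kcnj6, at 1.45 and 1.47, lay within the range of these neighbours in HIP and just above it in EC. Erg was not called in either region (adjusted p = 0.298 and 0.807), and Ets2 was not called in the HIP (0.0684). Without the library labelled Ts65Dn replicate 3, Kcnj6 stood at 1.57 in both regions, beside 1.26 (Erg) to 1.59 (Psmg1) in HIP and 1.05 (Erg) to 1.53 (Psmg1) in EC.

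Kcnj15 was hardly detected and failed the filter on low counts, so it was not tested. The 6 wt HIP libraries held between 0 and 4 counts, 8 in all, and the 6 Ts65Dn HIP libraries between 0 and 9, 27 in all. The library at 0 in the Ts65Dn group was that labelled replicate 3, and the other 5 held 4 counts or more. In the EC the wt libraries held from 1 to 3 counts, 12 in all, and the Ts65Dn libraries from 2 to 7, 25 in all, with overlapping groups. At such counts a difference between genotypes cannot be sized, and 5.13% of the 50-base words of Kcnj15 also occur in transcripts of 641 other genes.

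The next question was whether the partners of Kcnj6, which are not triplicated, differed between genotypes. Kcnj3 encodes GIRK1, which needs another subunit to reach the cell surface. It was at 199, 209 and 228 CPM in the wt HIP and at 158, 192 and 226 CPM in the Ts65Dn HIP, with overlapping groups and a fold change of 0.898 (0.807 to 1.0004; edgeR adjusted p = 0.338), and of 0.912 (0.815 to 1.02; adjusted p = 0.390) without the library labelled Ts65Dn replicate 3. In the EC it was at 146, 178 and 196 CPM in wt and at 132, 144 and 169 CPM in Ts65Dn. In the EC 4 of the 6 Ts65Dn libraries were below the lowest wt library, and the groups overlapped. Among the 4 was the library labelled Ts65Dn replicate 3 (144 CPM), whose triplicated genes were at the wt level. The fold change was 0.825 (0.737 to 0.924; log2 -0.28 ± 0.08 SE), which missed the threshold by edgeR (adjusted p = 0.0673) and passed by DESeq2 (adjusted p = 0.0137). The edgeR result also passed without wt replicate 2 (0.0287) or without Ts65Dn replicate 6 (0.0293), and did not without the library labelled Ts65Dn replicate 3 (0.830-fold, 0.735 to 0.937; adjusted p = 0.0903).

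Kcnj9 encodes GIRK3, a subunit that can lower surface expression of the channel. It was at 73.2, 103 and 124 CPM in wt and 81.2, 96.7 and 115 CPM in Ts65Dn in the HIP, and at 105, 148 and 173 CPM and 107, 150 and 176 CPM in the EC. The groups overlapped throughout, and the fold changes were 0.979 (0.808 to 1.19) in HIP and 0.997 (0.823 to 1.21) in EC (edgeR adjusted p = 0.939 and 0.991). These were 0.947 (0.776 to 1.16) and 0.996 (0.809 to 1.23) without the library labelled Ts65Dn replicate 3. The intervals leave room for changes of that size in either direction. Kcnj5 was at 0.523 to 1.52 CPM in the wt HIP and 0.346 to 1.35 CPM in the Ts65Dn HIP, from 8 to 45 counts a library, and the fold change of 1.09 had an interval of 0.667 to 1.77. The HIP value of Kcnj5 turned to 0.954 (0.581 to 1.57) without the library labelled Ts65Dn replicate 3. In the EC its levels were 1.88 to 2.70 CPM in wt and 2.02 to 4.12 CPM in Ts65Dn, with a fold change of 1.24 (0.970 to 1.58; edgeR adjusted p = 0.330), and of 1.22 (0.935 to 1.59; adjusted p = 0.415) without that library.

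Gabbr1 was at 774, 825 and 956 CPM in the wt HIP and at 773, 821 and 929 CPM in the Ts65Dn HIP. Its fold change in the HIP was 1.01 (0.919 to 1.11; edgeR adjusted p = 0.956), and in the EC, with levels of 974, 997 and 1041 CPM and 899, 1026 and 1027 CPM, it was 0.987 (0.925 to 1.05; adjusted p = 0.872). Gabbr2 was at 330, 357 and 374 CPM in wt and 324, 361 and 400 CPM in Ts65Dn in the HIP, and at 451, 486 and 548 CPM and 468, 523 and 555 CPM in the EC. Its fold changes were 1.02 (0.945 to 1.11) and 1.05 (0.961 to 1.14), with edgeR adjusted p = 0.816 and 0.595. Once the mouse labelled Ts65Dn replicate 3 was set aside, Gabbr1 was at 1.02 (0.932 to 1.12) in HIP and 0.982 (0.917 to 1.05) in EC, and Gabbr2 at 1.03 (0.943 to 1.12) and 1.03 (0.947 to 1.13). Both receptor subunits thus overlapped between genotypes in each region, and the highest upper limit of their fold changes was 1.14 in these fits.

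Rgs7 was at 74.0, 78.8 and 84.3 CPM in the wt HIP and at 74.5, 77.3 and 87.1 CPM in the Ts65Dn HIP, a fold change of 0.995 (0.928 to 1.07; edgeR adjusted p = 0.965), and of 1.004 (0.934 to 1.08) without the library labelled Ts65Dn replicate 3. In the EC it was at 115, 129 and 132 CPM in wt and at 105, 116 and 119 CPM in Ts65Dn. The wt library with the lowest value lay among the Ts65Dn libraries and the other 5 lay above all of them. The fold change of 0.902 (0.843 to 0.965; log2 -0.15 ± 0.05 SE) missed the threshold by edgeR (adjusted p = 0.0948) and passed by DESeq2 (adjusted p = 0.0273). Without the library labelled Ts65Dn replicate 3 it was 0.897 (0.835 to 0.962; edgeR adjusted p = 0.0891).

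**Figure D2:**
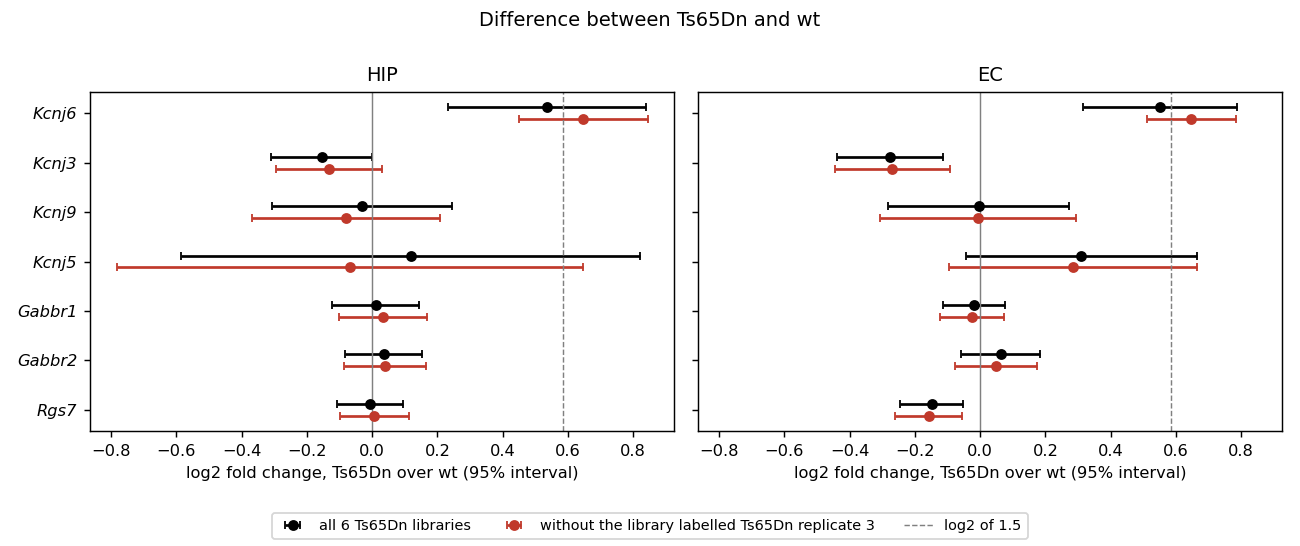
Log2 fold change of Ts65Dn over wt (x axis) for the 7 members tested (y axis) in the HIP and EC, with 95% intervals, from all libraries (black) and without the library labelled Ts65Dn replicate 3 (red); the dashed line is log2 of 1.5. Kcnj6 lies near the dashed line in both regions, Kcnj3 and Rgs7 lie below 0 in the EC, and the intervals of Gabbr1 and Gabbr2 are short and include 0.

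Ratios between members describe the balance of their RNA within each library, free of differences in library size. Per kb, Kcnj6 was at 0.139, 0.156 and 0.174 of Kcnj3 in the wt HIP (lowest, median and highest) and at 0.161, 0.257 and 0.309 in the Ts65Dn HIP. In the EC the ratio was 0.0996, 0.118 and 0.122 in wt and 0.137, 0.208 and 0.240 in Ts65Dn. In the HIP the lowest Ts65Dn value, that of the library labelled replicate 3, lay within the wt range, and the other 5 started at 0.234. In the EC that library was above wt, at 0.137, and the other 5 started at 0.189. As a share of the 4 GIRK subunit genes, Kcnj6 made up 8.95% ± 0.979 (SD, n = 6) in the wt HIP and 14.2% ± 1.78 (n = 5, without that library) in the Ts65Dn HIP, and 5.39% ± 0.489 and 8.92% ± 1.27 in the EC. The share of Kcnj3 was 57.6% ± 3.55 and 53.2% ± 3.04 in HIP and 47.1% ± 2.12 and 41.1% ± 3.40 in EC, and that of Kcnj9 was 33.2% ± 4.38 and 32.4% ± 4.19 in HIP and 46.8% ± 2.52 and 49.0% ± 4.30 in EC. With all 6 Ts65Dn libraries, Kcnj6 made up 13.2% ± 2.92, Kcnj3 52.8% ± 2.88 and Kcnj9 33.8% ± 5.01 in HIP. In EC these shares were 8.38% ± 1.75, 41.2% ± 3.05 and 49.5% ± 4.01. Kcnj5 made up at most 1.14% in any library. The ratio of Gabbr1 to Gabbr2 was 2.04 ± 0.184 in wt and 2.01 ± 0.170 in Ts65Dn (n = 6 each) in HIP, and 1.76 ± 0.145 and 1.66 ± 0.114 in EC. Without that library the Ts65Dn values were 2.03 ± 0.177 and 1.66 ± 0.125 (n = 5).

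**Figure D3:**
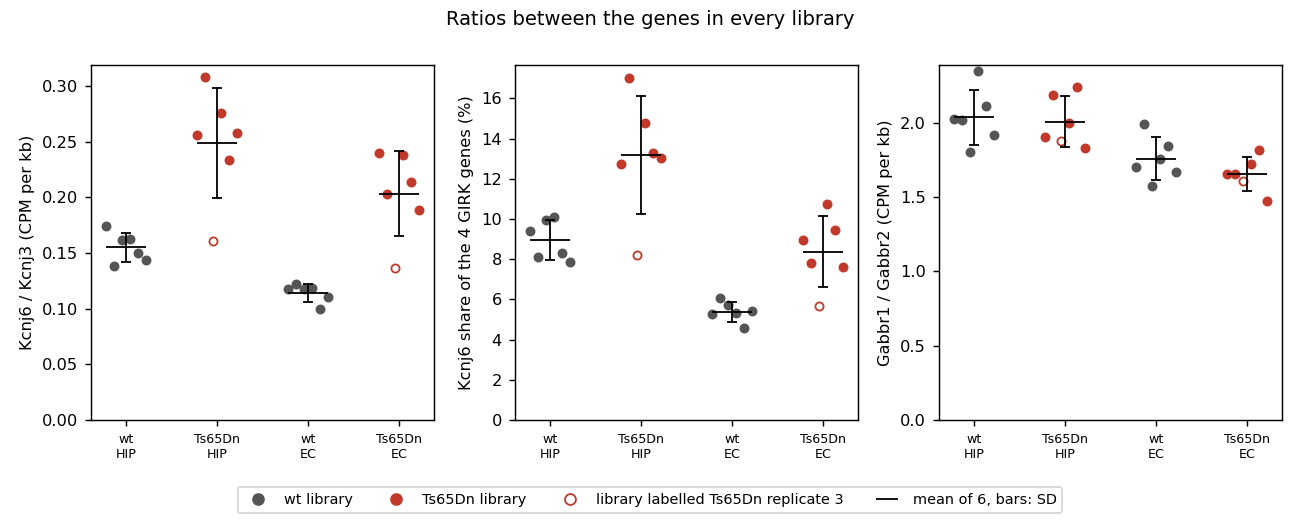
Kcnj6 over Kcnj3, the share of Kcnj6 among the 4 GIRK subunit genes in percent, and Gabbr1 over Gabbr2 (y axes, all from CPM per kb) in the 6 libraries of each group (x axis); bars are the mean and SD. The first 2 measures are higher in the Ts65Dn libraries other than the one labelled replicate 3 (open circle) than in every wt library of the same region, and the third overlaps between genotypes.

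The 2 regions differed for each of the 7 members tested. In wt mice, Kcnj6 was 1.62-fold higher in the HIP than in the EC (log2 0.70; edgeR with the mouse as a block, adjusted p = 5.41e-07) and Kcnj3 was 1.20-fold higher (log2 0.26 ± 0.05 SE, adjusted p = 0.00141). The other 5 were lower in the HIP: Kcnj5 to 0.308 of its EC level (log2 -1.70 ± 0.20), Rgs7 to 0.621 (-0.69 ± 0.03), Kcnj9 to 0.692 (-0.53 ± 0.12), Gabbr2 to 0.717 (-0.48 ± 0.03) and Gabbr1 to 0.831 (-0.27 ± 0.05), with adjusted p-values from 7.89e-08 (Rgs7) to 0.00361 (Kcnj9). Each direction was seen in 6 of 6 wt mice. Regional differences were common: 61.3% of 17196 genes were called, 31.0% higher and 30.3% lower in the HIP.

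In Ts65Dn mice, where 52.3% of 17314 genes were called, the same 2 members were higher in the HIP (26.6% of all genes were higher) and the same 5 lower (25.7%). Kcnj6 was 1.58-fold higher (log2 0.66 ± 0.08 SE), Kcnj3 1.29-fold higher (0.37 ± 0.06), and Kcnj5, Rgs7, Kcnj9, Gabbr2 and Gabbr1 were at 0.271, 0.681, 0.682, 0.698 and 0.846 of their EC level. The edgeR adjusted p-values ran from 1.30e-05 (Gabbr2) to 0.00407 (Gabbr1), and each direction was again seen in 6 of 6 mice, of which 1 is the mouse labelled replicate 3, with its triplicated genes at the wt level. Without that mouse all 7 were called again in the same directions (47.9% of 17344 genes were called, 24.6% higher and 23.2% lower), and Kcnj6 was at 1.61, Kcnj3 at 1.30, Kcnj5 at 0.247, Rgs7 at 0.694, Kcnj9 at 0.664, Gabbr2 at 0.710 and Gabbr1 at 0.867 of the EC level. The balance of RNA between the GIRK subunit genes differed by region in both genotypes, and protein was not measured. Kcnj3 was at 1.46 to 2.26 times Kcnj9 per kb in the wt HIP and at 0.912 to 1.14 times in the wt EC, and in Ts65Dn it was at 1.25 to 2.01 times and 0.712 to 1.04 times. In the Ts65Dn HIP the mouse labelled replicate 3 was the one at 1.25, and the other 5 started at 1.34.

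Sums of some cell type markers differed between regions as well, whereas those of the excitatory neuron genes overlapped. The summed CPM of the 5 oligodendrocyte genes was 5705 to 7833 in the wt HIP and 1248 to 2365 in the wt EC, that of the 8 choroid plexus genes 99.2 to 4988 and 13.7 to 53.5, that of the 7 interneuron genes 699 to 959 and 962 to 1080, and that of the 3 excitatory neuron genes 5276 to 5891 and 5567 to 6535. Their part in the regional differences of the members was not tested. Between genotypes the marker sums overlapped in all 13 lists and in both regions, with and without the library labelled Ts65Dn replicate 3. Excitatory neuron sums had medians of 5481 CPM in wt and 5805 in Ts65Dn (5897 without that library) in HIP, and 5836 and 6208 (6175) in EC, and interneuron sums 885 and 868 (871), and 985 and 1017 (1006).

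Of the glial lists, the microglial gene P2ry12 was called lower in Ts65Dn in both regions, from 55.8 ± 3.64 to 46.5 ± 3.26 CPM in HIP (0.831-fold, edgeR adjusted p = 0.0422) and from 63.3 ± 9.41 to 46.7 ± 3.97 CPM in EC (0.732-fold, adjusted p = 0.0226), and again without that library (0.832-fold, adjusted p = 0.0483, and 0.746-fold, adjusted p = 0.0309). The other 4 microglial genes were not called, and the summed CPM of the 5 had medians of 330 and 331 in HIP and 396 and 362 in EC. Of all genes tested, 1.04% were called in HIP and 2.50% in EC, and 1.82% and 2.79% without that library. Those below an unadjusted p of 0.05 were 14.8% in HIP and 19.0% in EC with all libraries. Of the 5 astrocyte genes 0 were called by edgeR in either region, with 2 in HIP and 3 in EC below an unadjusted p of 0.05, and the median log2 fold change was -0.12 in HIP and -0.22 in EC (-0.15 and -0.23 without that library). Astrocyte sums were 1624 to 1900 CPM in wt and 1496 to 1881 in Ts65Dn in HIP, and 1346 to 1739 and 1112 to 1481 in EC. Of the 5 blood genes 0 were called by edgeR, with 0 in HIP and 3 in EC below an unadjusted p of 0.05, and medians of -0.39 and -0.73 on the log2 scale. The 5 meningeal genes had medians of 0.67 in HIP and -0.0025 in EC with 0 called, and the choroid plexus genes 0.35 and 0.29 with 0 called (1 and 1 of the meningeal genes, and 0 and 2 of the choroid plexus genes, were below an unadjusted p of 0.05). The part of these cells in the genotype values of the members was not tested.

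**Figure D4:**
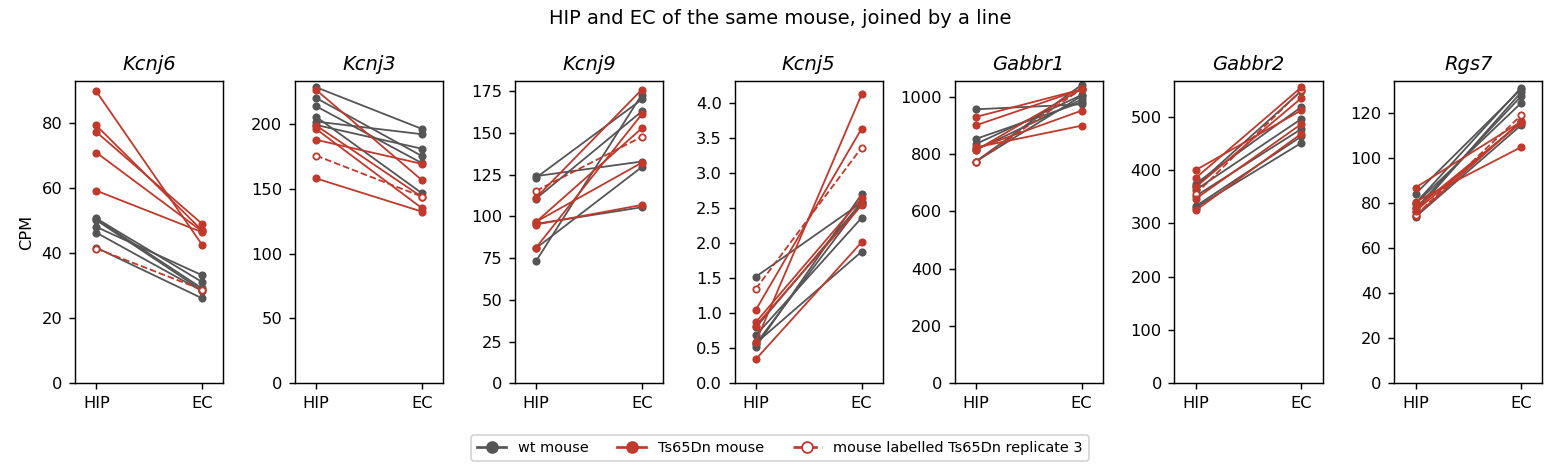
CPM (y axes, from 0) of the 7 members tested in the HIP and EC of each of the 12 mice, with the 2 libraries of a mouse joined by a line. The lines of Kcnj6 and Kcnj3 fall from HIP to EC and those of the other 5 rise, in wt (grey) and Ts65Dn (red) mice alike; the mouse labelled Ts65Dn replicate 3 (dashed) follows wt mice for Kcnj6.

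Whether the genotype difference of a member depended on the region was tested as an interaction over all 24 libraries with a term for each mouse. By edgeR 0 of 7 members were called, as were 0 of 18109 genes (0.00%), of which 742 were below an unadjusted p of 0.05, and DESeq2 also called 0. Without the mouse labelled Ts65Dn replicate 3 edgeR again called 0 of 7 and 0 of 18220 genes, of which 1176 were below an unadjusted p of 0.05. For Kcnj6 the HIP change exceeded the EC change by -0.04 on the log2 scale (0.10 SE), that is a ratio of the 2 fold changes of 0.972 (0.841 to 1.12), and of 0.989 (0.850 to 1.15) without that mouse. Rgs7 was the only member below an unadjusted p of 0.05 (log2 0.14 ± 0.06 SE, edgeR adjusted p = 0.9998, and 0.16 ± 0.06, adjusted p = 0.762, without that mouse).

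The other genes of the pathway were taken from lists by function. Their counts below an unadjusted p of 0.05 stand beside 14.8% of all genes in HIP and 19.0% in EC, and their counts of called genes beside 1.04% and 2.50%. Calls made without the library labelled Ts65Dn replicate 3 stand beside 1.82% of all genes in HIP and 2.79% in EC. Of 13 proteins that bind or assist GABA-B receptors, which include the KCTD auxiliary subunits, 1 was called in each region, the triplicated App, whose product binds the receptor (1.48-fold in the HIP, adjusted p = 0.0267, and 1.37-fold in the EC, adjusted p = 0.0228). App was at 1.58-fold and 1.45-fold without the library labelled Ts65Dn replicate 3 (edgeR adjusted p = 1.68e-06 and 1.93e-05). Of 14 genes of the R7 RGS complex and of GIRK regulation, 0 were called by edgeR in either region, with 1 in HIP and 3 in EC below an unadjusted p of 0.05. Without the library labelled Ts65Dn replicate 3, Rgs2 was called lower in the HIP (0.827-fold, adjusted p = 0.0278), and Gpr158, a membrane anchor of Rgs7, and Rgs4 were called lower in the EC (0.835-fold, adjusted p = 0.0243, and 0.769-fold, adjusted p = 0.0258).

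Of the 19 G protein genes, 18 were tested in the HIP and 0 called by edgeR, with 5 below an unadjusted p of 0.05, and 16 in the EC, where Gnai1, an inhibitory alpha subunit, fell to 0.841-fold (adjusted p = 0.0483). Without the library labelled Ts65Dn replicate 3, Gnai1 was not called (0.859-fold, adjusted p = 0.0671) and the gamma subunit gene Gng7 was (1.35-fold, adjusted p = 0.0414). Of 23 other receptors that open GIRK channels, 20 were tested in each region. In the HIP 0 of the 20 were called by edgeR and 0 were below an unadjusted p of 0.05, and in the EC the dopamine receptor gene Drd2 rose 2.94-fold (1.81 to 4.78; adjusted p = 0.0254), from a mean of 1.33 ± 0.548 CPM in wt to 3.93 ± 1.89 CPM in Ts65Dn (SD, n = 6). The fold change was 3.26 (2.08 to 5.10; edgeR adjusted p = 0.00940) without the library labelled Ts65Dn replicate 3. Drd2 also marks striatum. The summed CPM of the 7 striatal genes was 176 to 204 in the wt EC and 166 to 248 in the Ts65Dn EC, 1 of the 7, Drd2 itself, was called, and 3 were below an unadjusted p of 0.05. Among them was the adenosine receptor gene Adora2a (3.21-fold, edgeR adjusted p = 0.0956). The median log2 fold change of the 7 striatal genes was 0.24 in the EC, beside 0.00463 over all genes. The part of striatal tissue in the rise of Drd2, or in that of Gng7 in the EC, was not tested. Without the library labelled Ts65Dn replicate 3, the metabotropic glutamate receptor gene Grm2 was called lower as well (0.821-fold, adjusted p = 0.0266).

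Among the 11 calcium channel, adenylyl cyclase and protein kinase A genes that act downstream of GABA-B receptors, Adcy5 rose in the EC (1.19-fold, edgeR adjusted p = 0.0482, and 1.21-fold, adjusted p = 0.0222, without the library labelled Ts65Dn replicate 3). The part of striatal tissue in this rise in the EC was not tested either. In the HIP 0 of 11 were called by edgeR, with 2 below an unadjusted p of 0.05, and 2, Adcy5 and Prkaca, were called higher without the library labelled Ts65Dn replicate 3 (1.17-fold, adjusted p = 0.0214, and 1.12-fold, adjusted p = 0.0352). Of the 9 other inward rectifiers tested, 0 were called by edgeR in either region, with 1 in each below an unadjusted p of 0.05. Of the 7 genes of GABA synthesis, uptake and breakdown, 0 were called by edgeR, with 0 in HIP and 2 in EC below an unadjusted p of 0.05. Aldh5a1, which ends GABA breakdown, was called lower in the EC without the library labelled Ts65Dn replicate 3 (0.878-fold, adjusted p = 0.0371). The list medians of the log2 fold change ran from 0.000152 (R7 RGS complex) to 0.11 (inward rectifiers) in HIP and from -0.06 to 0.11 for the same lists in EC, beside a median of 0.00466 over all genes in HIP and 0.00463 in EC.

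Between regions, where 61.3% of all genes were called in wt mice (31.0% higher and 30.3% lower in the HIP), pathway genes were called more often than between genotypes, as were genes at large. In wt mice, 3 of the 13 GABA-B partners were higher and 7 lower in the HIP, led by the auxiliary subunit genes Kctd12 (log2 1.21) and Kctd16 (-0.80) and by Ajap1 (-0.52). Of the 14 R7 RGS and GIRK regulators, 4 were higher and 7 lower, led by Gpr179 (2.75), Rgs6 (-1.84) and Rgs4 (-1.80). Of the 17 G protein genes tested, 4 were higher and 11 lower, led by Gng8 (2.87), Gnb4 (-2.22) and Gng4 (-1.26). Of the 20 receptors, 7 were higher and 11 lower, led by the opioid receptor gene Oprk1 (-3.76), Npy2r (2.89) and Sstr2 (-1.44). Of the 9 inward rectifiers, 2 were higher and 4 lower, led by Kcnj13 (3.18), which is known from choroid plexus, Kcnj12 (-1.21) and Kcnj16 (-1.18). Of the 11 effectors, 3 were higher and 6 lower, led by Prkacb (-1.22), Adcy8 (-0.82) and Adcy9 (0.56), and of the 7 GABA genes 0 were higher and 4 lower, led by Slc32a1 (-0.42) and Slc6a11 (-0.20).

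In Ts65Dn mice the 3 leading genes of each list kept their direction where they were again among the 3. The leading genes that changed were Rgs11 (log2 1.43) in place of Rgs4, and Adcy5 (-0.57) in place of Adcy9. Without the mouse labelled Ts65Dn replicate 3, Gpr179 was at 1.42 and not called (edgeR adjusted p = 0.102), and Adcy9 (0.64) stood above Adcy5 (-0.56) in size. Among the receptors, Oprk1 was at -4.14, Npy2r at 2.89 and Sstr2 at -1.50, and among the GABA-B partners Kctd12 was at 1.19.

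Genes whose level followed each member closely over the 24 libraries were found with each region's mean subtracted, as Pearson's r of log2(CPM + 1) over 16592 genes. For Kcnj6 they were Brwd1 (r = 0.957), Dyrk1a (0.944) and Gtf2h5 (0.942), all 3 on the triplicated segments of Mmu16 and Mmu17, so these points share the genotype. Over the 12 wt libraries alone they were Gpr158 (0.903), Ing5 (0.880) and Cap2 (0.875). For Kcnj3 they were Slitrk2 (0.904) and Serbp1 (0.896), and for Kcnj9 Stac2 (0.826) and Tspoap1 (0.817). For Gabbr1 they were Gm16011 (0.755), Itm2c (0.752) and Nifk (0.720), for Gabbr2 BC005624 (0.823), Clip3 (0.820) and Apba2 (0.764), and for Rgs7 Stau2 (0.759), 1700001L05Rik (0.715) and Gm43686 (0.707). No member was among the genes named for another member. Gabbr1 and Gabbr2 were at r = 0.199 with each other, Kcnj6 and Kcnj3 at -0.252 over 24 libraries and at 0.516 over the 12 wt libraries. The points share libraries and dissection, 2 come from each mouse, and these values describe the libraries only.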

How the data were processed

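RNA of the HIP and EC was sequenced as 50-base single-end reads. Per the study's methods, the authors aligned reads with Hisat2 to GRCm38 (Ensembl 99) and counted them with HTSeq, and they deposited the raw read counts per gene used here, not normalized. The submitters' processing notes also name bcl2fastq 2.17.1.14, DESeq2 and mm10. The labels name a poly(A) kit and the methods a ribosomal depletion kit, both stranded. Tables of the authors' own fold changes and p-values were not used. Libraries with the same mouse number in the labels came from the same mouse, and the other numbers did not pair animals. Groups followed the labels.

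Counts were tested with edgeR 4.0.16 (R 4.3.3; filterByExpr, TMM scaling, quasi-likelihood test, Benjamini-Hochberg adjustment over all genes tested, threshold 0.05), with the mouse as a term for region and interaction. SE and 95% intervals come from that fit, and CPM values use TMM-scaled library sizes. DESeq2 1.42.0, other scalings and filters, a replicate block and each mouse left out were tried as alternatives. Results for lists, marker sums, neighbours and ratios without the library labelled Ts65Dn replicate 3 were chosen after seeing the data. Exon lengths and positions were taken from GENCODE vM21, which matched 99.6% of gene IDs. On simulated counts for the HIP comparison (17355 genes), 161 of 200 genes changed 1.5-fold were recovered with 15 false calls, and 47 of 200 with 3 false calls for the interaction (18109 genes). The simulation gave every gene the same spread beyond sampling noise and changed every library of the altered group, so recovery in the data may be lower. Mice paired within themselves (HIP and EC deviations correlated at r = 0.241 to 0.425 in wt and 0.178 to 0.426 in Ts65Dn, 6 of 6 above 0.1). The 60 pairs of libraries within groups differed beyond sampling noise (chi-square per degree of freedom from 7.66 to 35.8), so none was counted as a duplicate. PCR copies cannot be told from separate molecules. The named genes were all 8 members in each comparison, list genes called between genotypes (at most 6 per list and region), the 3 called list genes with the largest regional change, the 3 tested protein-coding genes on either side of Kcnj6 and Kcnj15, and the 3 genes with the highest r for each of 6 members. Some genes that this rule names are not reported here. The members and lists were chosen with earlier results of these data known.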

Additional observations from a re-analysis of the deposited data

Results flagged for a closer look

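In 4 of 64 sets of 6 libraries (the levels of the 8 genes and 8 ratios or shares between them, in each group) the highest or lowest library stood apart from the others by more than Dixon's 95% limit, as a share of the range, where chance gives about 1 in 20. Kcnj6 was at 28.8 CPM in the EC library labelled Ts65Dn replicate 3, with a gap of 0.682 of the range, and the triplicated genes of that library were at the wt level. Kcnj5 was at 1.52 CPM in wt HIP replicate 4 (gap 0.724), where it also made up 0.522% of the 4 GIRK subunit genes (gap 0.719). Rgs7 was at 105 CPM in Ts65Dn EC replicate 6, below the other 5 (gap 0.765).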

How the results depend on the processing

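Of the members, 0 were called between genotypes in the HIP by edgeR, 1 by DESeq2, and 0 to 1 with 1 mouse left out, the call being Kcnj6 without the library labelled Ts65Dn replicate 3. In the EC the count of 1 became 3 by DESeq2 (Kcnj6, Kcnj3 and Rgs7) and 0 to 2 with 1 mouse left out. The replicate number as a block gave 0 in the EC (Kcnj6 log2 fold change 0.53, adjusted p = 0.0665), and 29 and 36 genes called in the HIP and EC. Animals of the same number in wt and Ts65Dn correlated at r = -0.224 to 0.162 (3 of 6 pairs above 0.1) in the HIP and -0.104 to 0.167 (1 of 6) in the EC, so the numbers do not pair them. Regional counts stayed at 7, except for 6 in Ts65Dn at 10 or more counts in every library, where Kcnj5 was not tested. Over all genes, the HIP count of 181 became 662 by DESeq2 and 54 to 318 with 1 mouse left out, the EC count of 426 became 1141 by DESeq2, 275 with no filter and 90 to 685 with 1 mouse left out, and the interaction count of 0 became 37 with no filter.

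Small differences changed sign. Kcnj9 in the EC was at log2 0.00053 with the replicate block. With 1 mouse left out, the log2 fold change in the HIP ranged from -0.11 to 0.037 for Kcnj9, from -0.067 to 0.42 for Kcnj5, from -0.017 to 0.057 for Gabbr1 and from -0.036 to 0.016 for Rgs7. In the EC it ranged from -0.082 to 0.071 for Kcnj9 and from -0.030 to 0.0084 for Gabbr1. The interaction ranged from -0.13 to 0.021 for Kcnj6, from -0.16 to 0.067 for Kcnj9, from -0.32 to 0.055 for Kcnj5 and from -0.0067 to 0.074 for Gabbr1. No other direction of a tested member changed under the alternatives run. Kcnj6 stayed above wt in all fits, with log2 0.45 to 0.65 in HIP and 0.51 to 0.65 in EC with 1 mouse left out. Depth limits Kcnj15 and Kcnj5. Causes of these changes were not tested.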
